A study of Homo sapiens with 16 samples.

Results

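The ADAM and ADAMTS genes encode metalloproteases that act at the cell surface and in the extracellular matrix. They were taken as the protein-coding GENCODE genes whose symbol is ADAM or ADAMTS followed by a number, which gave 39 genes (20 ADAM and 19 ADAMTS) of 20033 protein-coding genes. ADAM proteases are anchored in the membrane and many of them shed the outer parts of other membrane proteins, such as growth factor precursors, cytokines and Notch. ADAMTS proteases are secreted and cut matrix proteins, among them proteoglycans, procollagens and von Willebrand factor, and TIMP proteins inhibit members of both families. In tumours these enzymes are known for the release of EGF receptor ligands and for remodelling of the matrix around invading cells.

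Around these genes, H3K27ac peaks, which mark active promoters and enhancers, were recorded in Hs578T and MDA-MB-231, a pair of established cell lines from human breast cancers of the triple-negative type (TNBC). Each line was studied as control cells, which carry the Fn14 receptor, and as Fn14 KO cells made with a Cas9 lentivector and a pair of guides against TNFRSF12A, the gene of Fn14. The heading of the study's genotyping primers speaks of CRISPR clones, and how many clones stand behind the KO cells of each line was not given in the sources used here. All cells were starved for 8 h and then left untreated or given TWEAK, the ligand of Fn14, at 10 ng/ml for 48 h with renewal after 24 h. There were 8 groups of 2 replicates, hence 16 lists of peaks called by the authors on each sample alone.

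The lists held 39544 to 47197 peaks that covered 64.2 to 88.9 Mb. The lists hold no reads, so the sequencing depth is unknown and precision rests on the agreement of replicates. Hs578T lists covered more of the genome (77.8 to 88.9 Mb) than MDA-MB-231 lists (64.2 to 82.9 Mb), with an overlap of the ranges. The median −log10 q-value of a peak was 9.44 to 10.8 in MDA-MB-231 control lists, and the Fn14 KO lists of that line lay below it (5.80 to 7.69). The start site of TNFRSF12A was covered over 2.4 to 2.54 kb in control lists and 2.33 to 2.52 kb in Fn14 KO lists, which does not check the knockout, since small edits leave a promoter peak in place. Of the markers, VIM, ZEB1, EPCAM and GRHL2 had a start-site peak in all 16 lists, PECAM1 in 6, and ESR1, PGR, CDH1, CDH2 and PTPRC in none. Both epithelial (EPCAM, GRHL2) and mesenchymal (VIM, ZEB1) genes were thus marked, and of either kind 1 gene was not (CDH1, CDH2).

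Peak cover was measured in 2 windows for every gene, namely the 4 kb centred on the start site (2 kb on each side) and the gene body extended by 50 kb at both ends. Cover is the length in kb that peaks of a list occupy in the window. For the 39 genes together, 12 (30.8%) had a start-site peak in every list, 5 (12.8%) in some lists and 22 (56.4%) in none. Over all 20033 genes these shares were 54.5%, 9.27% and 36.3%. In the extended body, 32 of the 39 genes were covered in at least 2 lists and could be tested, and at the start site 17 could be.

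The promoter sequences below show how base composition varied among genes with and without a start-site mark, with each CG dinucleotide in capitals. They are the 250 bases before the RefSeq start (GRCh38.p14), written 5′ to 3′ on the gene's strand. ADAM17 was marked in every list and ADAMTS12 lost cover with TWEAK. ADAMTS14 had its peak mostly in MDA-MB-231, while ADAMTS2 and ADAM20 had no start-site peak in any list.
ADAM17 (chr2:9555831-9556080, minus strand): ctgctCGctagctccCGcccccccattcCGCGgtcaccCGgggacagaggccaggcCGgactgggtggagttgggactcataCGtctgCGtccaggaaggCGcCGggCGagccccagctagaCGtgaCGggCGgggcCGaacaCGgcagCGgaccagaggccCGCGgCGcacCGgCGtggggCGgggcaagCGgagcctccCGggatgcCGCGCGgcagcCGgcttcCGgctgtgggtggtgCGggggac
ADAMTS12 (chr5:33891991-33892240, minus strand): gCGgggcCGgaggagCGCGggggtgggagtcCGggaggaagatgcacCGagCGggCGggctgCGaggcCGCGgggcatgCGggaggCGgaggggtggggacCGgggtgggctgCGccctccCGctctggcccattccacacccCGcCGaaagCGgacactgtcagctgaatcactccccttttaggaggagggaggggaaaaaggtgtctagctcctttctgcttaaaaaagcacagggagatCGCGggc
ADAMTS14 (chr10:70672256-70672505, plus strand): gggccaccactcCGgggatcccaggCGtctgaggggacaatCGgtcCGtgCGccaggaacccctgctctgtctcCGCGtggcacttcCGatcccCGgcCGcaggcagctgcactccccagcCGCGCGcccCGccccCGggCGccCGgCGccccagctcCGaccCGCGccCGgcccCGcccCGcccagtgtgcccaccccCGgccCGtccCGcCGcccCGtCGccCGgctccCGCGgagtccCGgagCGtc
ADAMTS2 (chr5:179345462-179345711, minus strand): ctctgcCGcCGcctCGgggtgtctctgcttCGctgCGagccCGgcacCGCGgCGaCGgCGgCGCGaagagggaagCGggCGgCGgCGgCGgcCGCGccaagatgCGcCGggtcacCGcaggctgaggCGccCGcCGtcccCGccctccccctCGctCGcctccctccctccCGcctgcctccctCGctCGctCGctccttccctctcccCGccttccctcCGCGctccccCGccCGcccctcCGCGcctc
ADAM20 (chr14:70535005-70535254, minus strand): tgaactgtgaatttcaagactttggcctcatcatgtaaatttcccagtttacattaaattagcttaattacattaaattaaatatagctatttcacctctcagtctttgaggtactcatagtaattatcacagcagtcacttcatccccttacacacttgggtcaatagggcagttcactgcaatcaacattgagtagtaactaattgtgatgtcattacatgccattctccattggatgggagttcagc

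RefSeq promoters of 300 bases (250 before and 50 after the start) were matched by symbol for 24 of the 39 genes. The 9 genes among them with a start-site peak in every list held 9 to 44 CG dinucleotides (median 30). The 11 genes with no start-site peak in any list spread more widely, from 0 to 47 (median 25), and the median over all 35116 promoters was 14. The 0 belonged to ADAM20, a testis-type ADAM, and the 47 to ADAMTS2, the main procollagen I N-propeptidase. A CpG-rich promoter was thus present both in marked genes such as ADAM15 (44) and in unmarked ones such as ADAMTS2, ADAMTS10 (43) and ADAM23 (41).

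**Figure D1:**
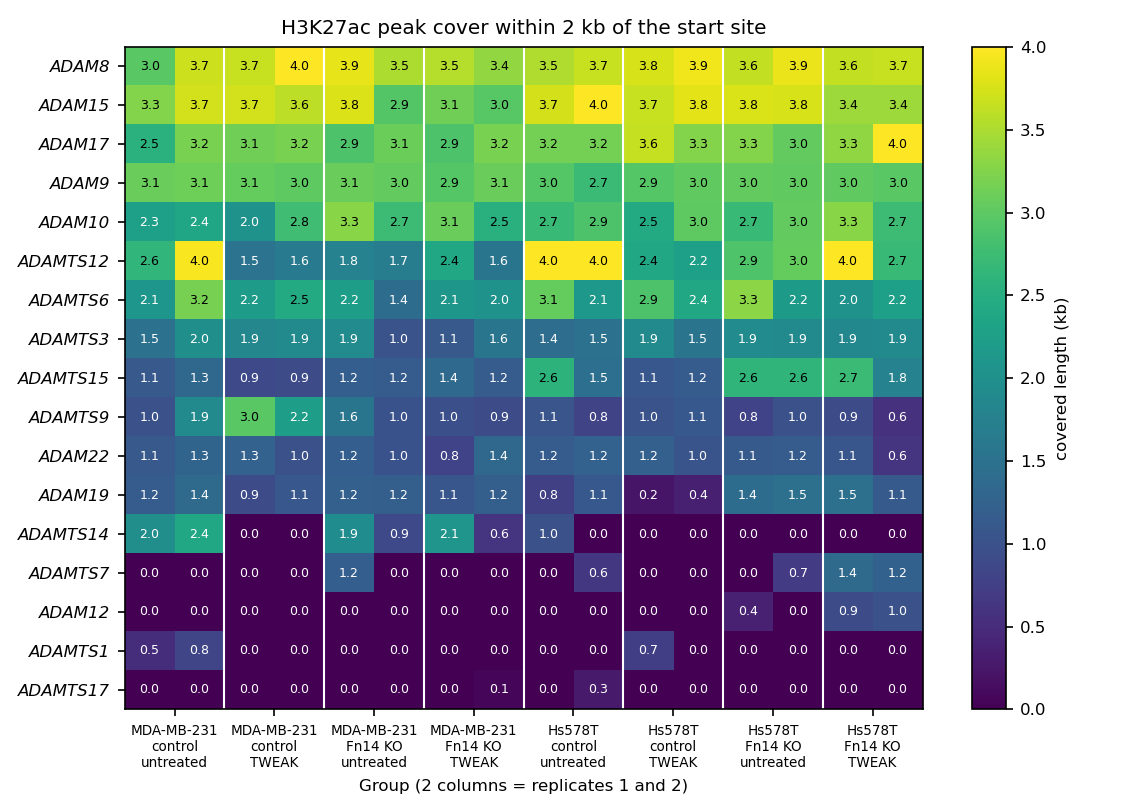
Length covered by H3K27ac peaks within 2 kb of the start site (colour and printed number, kb, at most 4) for the 17 genes with a start-site peak in any list (rows) in the 16 lists (columns, replicates side by side). ADAM8, ADAM15, ADAM17 and ADAM9 were covered over 2.55 to 4 kb in every list, while ADAMTS14 was covered in 6 of 8 MDA-MB-231 lists and 1 of 8 Hs578T lists.

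Of 9 sheddase genes, ADAM8, ADAM9, ADAM10, ADAM15, ADAM17 and ADAM19 had a start-site peak in all 16 lists, ADAM12 in 3, and ADAM28 and ADAM33 in none. ADAM17, the protease that releases TNF and several EGF receptor ligands, was covered at its start site over 2.55 and 3.19 kb in untreated MDA-MB-231 control cells and over 3.14 and 3.19 kb with TWEAK. In Hs578T control cells its values were 3.16 and 3.17 kb untreated and 3.65 and 3.26 kb with TWEAK. The groups were close and the difference of 0.29 ± 0.18 kb (SE) over both lines did not pass the test (limma, adjusted p = 0.497). ADAM10, the main sheddase of Notch receptors, differed by 0.02 ± 0.22 kb (SE, limma, adjusted p = 1).

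Of the neural, non-catalytic ADAMs, ADAM22 was marked at its start in every list and ADAM11 and ADAM23 in none. None of the 8 testis-type genes (ADAM2, ADAM7, ADAM18, ADAM20, ADAM21, ADAM29, ADAM30 and ADAM32) had a start-site peak in any list. Among 7 proteoglycan-cleaving ADAMTS genes, ADAMTS9 and ADAMTS15 were marked in every list, ADAMTS1 in 3, and ADAMTS4, ADAMTS5, ADAMTS8 and ADAMTS20 in none. ADAMTS3 among the procollagen N-propeptidases, ADAMTS12 among those that cut cartilage oligomeric matrix protein, and ADAMTS6 among the fibrillin-related ones were marked in all lists. ADAMTS7 was marked in 5 lists, ADAMTS17 in 2, and ADAMTS10, ADAMTS13, ADAMTS16, ADAMTS18 and ADAMTS19 in none. No base of the extended body was covered in any list for 6 genes, namely ADAM2, ADAM7, ADAM18, ADAM20, ADAM33 and ADAMTS5.

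To ask which genes change with TWEAK, untreated and TWEAK-treated control cells were compared over both lines in 1 model of all 16 lists (limma, adjusted over all genes tested in a window). In the extended body, cover rose at ADAMTS6, ADAMTS9, ADAM11 and ADAM28 and fell at ADAMTS8, ADAMTS15, ADAMTS14, ADAMTS10 and ADAM19. This is 4 higher and 5 lower of 32 genes tested (12.5% and 15.6%), against 7.54% and 11.3% of all 17915 genes. The median difference was −0.04 kb over the 32 genes and −0.20 kb over all genes. Treated and untreated lists did not overlap in either line for 6 genes higher and 7 lower of the 32. The same held for 30.2% of all genes, the share against which non-overlap with TWEAK in the body of control cells is to be read below. ADAMTS8 and ADAMTS15 are neighbours whose windows share 4 regions, so they do not count as separate results.

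**Figure D2:**
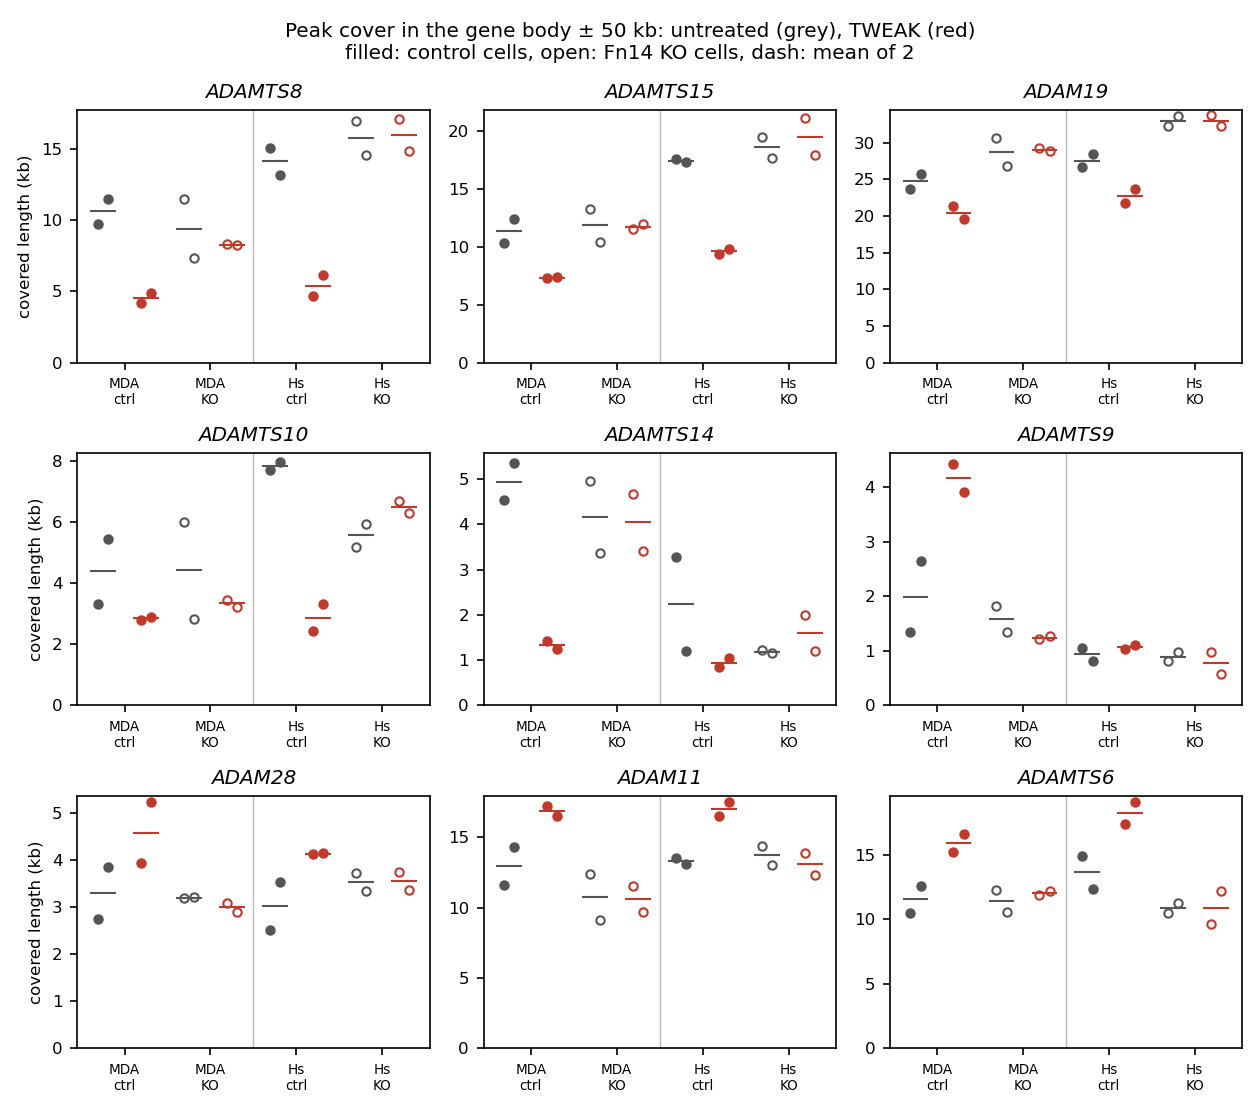
Length covered by H3K27ac peaks (kb) in the gene body extended by 50 kb at each end for the 9 genes that passed the test with TWEAK in control cells, 1 point per list, untreated in grey and TWEAK in red. In control cells (filled) the TWEAK points of ADAMTS8, ADAMTS15 and ADAM19 lay under the untreated points in both lines, and in Fn14 KO cells (open) the colours overlapped or lay close together.

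ADAMTS8 and ADAMTS15, both proteoglycanases, showed the largest decreases. Around ADAMTS8, untreated MDA-MB-231 control lists were covered over 9.76 and 11.5 kb and TWEAK lists over 4.16 and 4.86 kb. In Hs578T control cells the untreated lists gave 15.1 and 13.2 kb and the TWEAK lists 4.65 and 6.13 kb. The groups did not overlap in either line, and the difference was −7.47 ± 0.93 kb (SE, limma, adjusted p = 1.03e-04). In Fn14 KO cells the values were 11.5 and 7.35 kb untreated and 8.31 and 8.29 kb with TWEAK in MDA-MB-231, and 17.0 and 14.6 kb against 17.1 and 14.9 kb in Hs578T, so that the groups overlapped in both lines.

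Around ADAMTS15, the untreated MDA-MB-231 control lists gave 10.3 and 12.4 kb and the TWEAK lists 7.26 and 7.43 kb. The Hs578T control lists gave 17.6 and 17.3 kb untreated and 9.36 and 9.85 kb with TWEAK. Again there was no overlap, and the difference was −5.95 ± 0.87 kb (SE, limma, adjusted p = 3.77e-04). The ADAMTS15 gene lies at chr11:130448645-130476645 and ADAMTS8 at chr11:130404923-130428609 (hg38), on opposite strands and head to head. The ADAMTS8 body itself held none of the 5 regions that carried most of its decrease. These were 2 intergenic regions 41.5 and 37.4 kb from its start (mean changes of −2.02 and −1.48 kb), 1 intergenic region 5.42 kb from its start (−0.88 kb), the ADAMTS15 start site (−1.77 kb) and the ADAMTS15 3′ end (−1.29 kb inside the ADAMTS8 window).

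ADAMTS14, a procollagen N-propeptidase, lost its start-site peak in MDA-MB-231. The start site was covered over 1.98 and 2.38 kb in untreated control lists and over 0 kb in both TWEAK lists. In MDA-MB-231 Fn14 KO cells it was covered in all 4 lists, over 1.94 and 0.877 kb untreated and 2.09 and 0.605 kb with TWEAK. Among Hs578T lists only untreated control replicate 1 had a peak there (0.995 kb). The start-site difference over both lines was −1.34 ± 0.34 kb (SE) and did not pass the test (limma, adjusted p = 0.0740), whereas that of the extended body did, at −2.45 ± 0.45 kb (SE, limma, adjusted p = 0.00192).

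ADAM19, a sheddase of neuregulin, was covered over 23.7 and 25.7 kb in untreated and 21.3 and 19.6 kb in TWEAK-treated MDA-MB-231 control lists. Hs578T control lists gave 26.7 and 28.4 kb untreated and 21.7 and 23.7 kb with TWEAK. The groups were apart in both lines, with a difference of −4.57 ± 1.28 kb (SE, limma, adjusted p = 0.0233). The call was lost on leaving out MDA-MB-231 control untreated replicate 2, MDA-MB-231 control TWEAK replicate 2, Hs578T control untreated replicate 2 or Hs578T control TWEAK replicate 1 (adjusted p between 0.0644 and 0.101), and with a replicate block (adjusted p = 0.0533).

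ADAMTS10, which binds and processes fibrillin, went from 7.71 and 7.98 kb to 2.44 and 3.31 kb in Hs578T control lists. In MDA-MB-231 control lists it was 3.32 and 5.46 kb untreated and 2.80 and 2.90 kb with TWEAK, and the overall difference was −3.26 ± 0.60 kb (SE, limma, adjusted p = 0.00199). Most of it lay outside the gene, in an intron of MYO1F (−1.52 kb) and in NFILZ (−1.23 kb). With a flank of 10 kb the difference was −0.83 kb and did not pass (adjusted p = 0.106).

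Of the genes that rose, ADAMTS6 changed most, from 10.5 and 12.6 kb to 15.2 and 16.6 kb in MDA-MB-231 control lists. In Hs578T control lists it went from 14.9 and 12.4 kb to 17.4 and 19.1 kb, and the difference was 4.45 ± 0.86 kb (SE, limma, adjusted p = 0.00275). The groups did not overlap in either line. Its start site, by contrast, was covered over 2.10 and 3.18 kb untreated and 2.21 and 2.45 kb with TWEAK in MDA-MB-231, and most of the gain lay in 3 neighbouring regions within the gene, 281.3, 276.6 and 270.3 kb from the start (0.92, 0.82 and 1.39 kb), with smaller gains of 0.29 to 0.43 kb in 4 regions farther downstream, 2 of them outside the gene.

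ADAMTS9, a proteoglycanase related to the ancestral GON-1 enzyme, rose in MDA-MB-231 control lists from 1.34 and 2.65 kb to 4.43 and 3.92 kb. In Hs578T control lists it was 1.06 and 0.816 kb untreated and 1.03 and 1.10 kb with TWEAK, which overlap. The difference over both lines was 1.15 ± 0.24 kb (SE, limma, adjusted p = 0.00494). The test of the difference between lines gave −2.05 ± 0.49 kb (Hs578T minus MDA-MB-231) and did not pass (limma, adjusted p = 0.442). The added cover in MDA-MB-231 lay at the start site and in an intergenic region 2.70 kb upstream, which in MDA-MB-231 control cells had a peak in untreated replicate 2 and in both TWEAK lists, and which had none in the remaining lists.

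The increase at ADAM11, a neural ADAM without catalytic activity, was 3.81 ± 0.89 kb (SE, limma, adjusted p = 0.00867). It lay in the neighbouring gene GJC1, which encodes a connexin, and fell to 0.40 kb with a flank of 10 kb (adjusted p = 0.351). ADAM28, a sheddase of lymphocytes and epithelia, rose by 1.19 ± 0.34 kb (SE, limma, adjusted p = 0.0264), of which 0.95 kb came from 1 intronic region of its neighbour ADAMDEC1. With a flank of 10 kb the ADAM28 difference was −0.11 kb (adjusted p = 0.805), and the call was also lost without MDA-MB-231 control untreated replicate 1, MDA-MB-231 control TWEAK replicate 2, Hs578T control untreated replicate 1 or either Hs578T control TWEAK list (adjusted p between 0.0676 and 0.127).

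**Figure D3:**
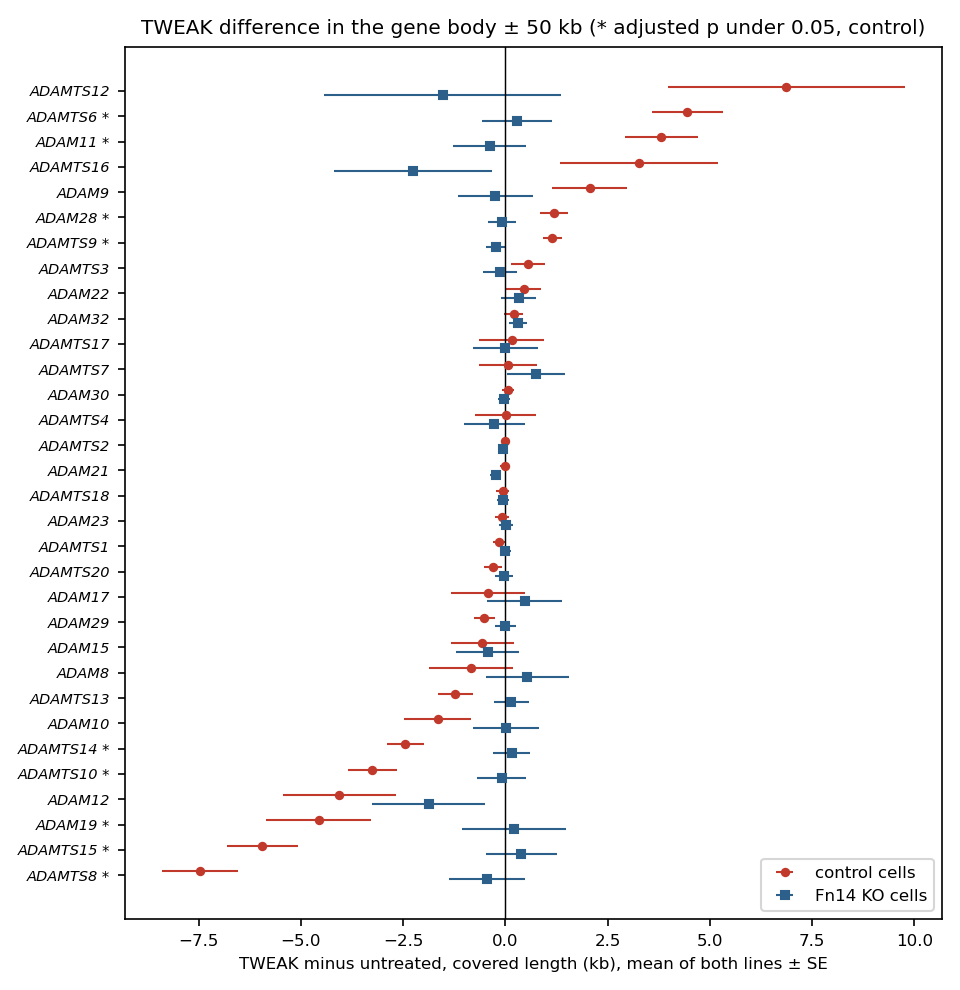
Difference between TWEAK and untreated lists in covered length (kb) of the extended body for the 32 genes tested, mean of both lines with its SE, in control cells (red circles) and Fn14 KO cells (blue squares). The control values ran from −7.47 kb at ADAMTS8 to 6.87 kb at ADAMTS12, and no Fn14 KO value passed the test.

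At the start site itself, ADAMTS12 was the 1 gene of 17 that passed the test with TWEAK in control cells. It fell, and none rose, against 1.82% lower and 1.09% higher of all 12548 genes tested there. ADAMTS12, which cuts cartilage oligomeric matrix protein, was covered over 2.63 and 3.96 kb in untreated and 1.52 and 1.63 kb in TWEAK-treated MDA-MB-231 control lists. In Hs578T control lists the whole window of 4 kb was covered in both untreated lists and 2.4 and 2.25 kb in the TWEAK lists. The groups did not overlap in either line, as for 15% of all genes tested there, and the difference was −1.70 ± 0.33 kb (SE, limma, adjusted p = 0.0257). Leaving out any control list but MDA-MB-231 control untreated replicate 1 took the adjusted p to between 0.0619 and 0.0818, and a replicate block took it to 0.0586.

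The ADAMTS12 gene (chr5:33523535-33892019, minus strand, hg38) showed mean changes of both signs along its length in control cells. While the start region changed by −2.08 kb on average, the cover of a region 52.4 kb downstream was higher by 3.53 kb. Cover of the whole extended body went from 45.9 and 54.9 kb to 55.8 and 57.1 kb in MDA-MB-231 control lists. In Hs578T control lists it went from 53.5 and 48.6 kb to 54.1 and 63.5 kb, and the difference of 6.87 ± 2.90 kb (SE) did not pass the test (limma, adjusted p = 0.117). The groups did not overlap in either line, as for 30.2% of all genes. This outcome depended on the setting. With lists scaled to total covered length the difference was 8.65 kb and passed (limma, adjusted p = 4.62e-04), and with equal peak numbers it passed too.

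**Figure D4:**
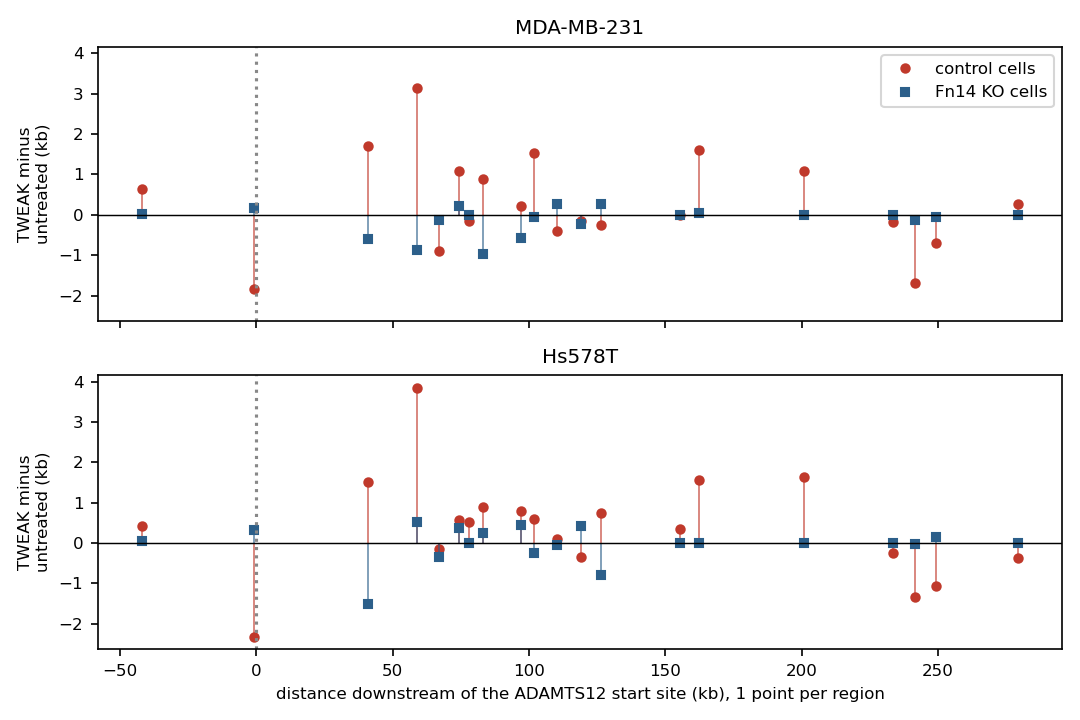
Mean TWEAK minus untreated cover (kb) of each of the 20 consensus regions of the ADAMTS12 window against the distance of its centre from the start site (kb, positive downstream), in control cells (red circles) and Fn14 KO cells (blue squares) of MDA-MB-231 (top) and Hs578T (bottom). In control cells of both lines the start region lies under 0 and the regions that begin 161.5 and 199.8 kb downstream lie above it.

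In Fn14 KO cells, no gene of the 39 passed the TWEAK test in either window. The background was 0% of 17915 genes in the extended body and 0.00797% of 12548 at the start site. At an unadjusted p under 0.05, limma gave 0 of 32 genes (321 of all 17915) and 1 of 17 (624 of all 12548). The difference between the TWEAK effects of control and Fn14 KO cells was then tested itself. It passed for ADAMTS8 (−7.02 ± 1.31 kb, SE, limma, adjusted p = 0.00668), ADAMTS15 (−6.34 ± 1.23 kb, adjusted p = 0.00830), ADAMTS14 (−2.60 ± 0.63 kb, adjusted p = 0.0283), ADAMTS9 (1.39 ± 0.35 kb, adjusted p = 0.0314) and ADAMTS10 (−3.17 ± 0.85 kb, adjusted p = 0.0438). These 5, of which ADAMTS8 and ADAMTS15 share regions, are 15.6% of the genes tested, against 5.28% of all genes. With each list scaled to its total covered length, 5 genes passed in each direction instead of 1 higher and 4 lower, and the share of higher calls over all genes went from 63.6% to 51.7%.

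The calls at ADAMTS8 and ADAMTS15 held on leaving out each list in turn. The call at ADAMTS10 held only without MDA-MB-231 control untreated replicate 1 or either MDA-MB-231 Fn14 KO untreated list, and reached an adjusted p of 0.118 otherwise. Those at ADAMTS14 and ADAMTS9 were each lost without 9 of the 16 lists (adjusted p up to 0.0803 and 0.0781). The lists whose removal ended both calls were MDA-MB-231 control TWEAK replicate 1, MDA-MB-231 Fn14 KO TWEAK replicate 1, both Hs578T control TWEAK lists and both Hs578T Fn14 KO untreated lists. The ADAMTS14 call was also lost without MDA-MB-231 control untreated replicate 2, MDA-MB-231 control TWEAK replicate 2 or Hs578T Fn14 KO TWEAK replicate 1, and the ADAMTS9 call without MDA-MB-231 Fn14 KO TWEAK replicate 2, Hs578T control untreated replicate 2 or Hs578T Fn14 KO TWEAK replicate 2. Other settings ended these calls too (limma). ADAMTS14 missed the threshold with a stricter q-value (adjusted p = 0.211), equal peak numbers (0.0648) and flanks of 10 kb (0.0661) and 100 kb (0.131). ADAMTS10 missed it with a replicate block (0.0766), flanks of 10 kb (0.164) and 100 kb (0.112) and a log2 scale (0.0659). ADAMTS9 missed it with a replicate block (0.0614) and a log2 scale (0.0786).

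The TWEAK effects of the lines were set against each other in control cells. No gene of the 39 passed in the extended body (background 0.0726%) or at the start site (0.112%), with 6 of 32 (652 of all 17915) and 3 of 17 (564 of all 12548) at an unadjusted p under 0.05 in limma. With scaling the share of higher calls over all genes went from 7.69% to 25.0% in the extended body and from 21.4% to 50% at the start site, still with none of the 39 genes. Likewise no gene passed at the start site for the difference between genotypes in the TWEAK effect (0.94% of all genes, 6 of 17 at an unadjusted p under 0.05, as for 1340 of all 12548), and ADAMTS12 gave −2.01 ± 0.47 kb there (SE, limma, adjusted p = 0.112).

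Regions gained or lost with TWEAK were counted next, where both lists of one treatment and neither list of the other had a peak. Of 55219 consensus regions, 199 lay in the extended bodies, and 109 of these (54.8%) had a peak in all 16 lists, against 51.3% of all regions. In MDA-MB-231 control cells, 10 of the 199 were gained (5.03%, against 5.58% of all regions) and 8 were lost (4.02%, against 4.49%). In Hs578T control cells, 13 were gained (6.53%, against 5.09%) and 7 were lost (3.52%, against 4.65%). These shares are near those of all regions.

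In Fn14 KO cells the counts were 1 gained and 2 lost in MDA-MB-231 (0.321% and 1.35% of all regions) and 1 gained and 1 lost in Hs578T (1.05% and 0.829%). Across both lines, 6 regions were gained in control cells of both (3.02%, against 2.48% of all regions) and 2 were lost in both (1.01%, against 1.34%). None changed in opposite directions. The 6 gained regions lay in introns of ADAMTS12 (2 regions), ADAMTS16 and GJC1 in the ADAM11 window, 7.17 kb upstream of the ADAM22 start, and at the HTRA4 start in the ADAM9 window. Of the lost regions, 1 lay beyond the 3′ end of ADAM10.

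The sequences below show regions that were gained with TWEAK, each as the 300 central bases on the plus strand (hg38). They are the regions in 2 ADAMTS12 introns and the region upstream of ADAM22, which were gained in both lines, and 2 gained in 1 line, chosen after their values were seen because they hold a match to a motif of AP-1 or NF-kappa B, factors that TWEAK signalling is known to engage. AP-1 matches (TGAGTCA or TGACTCA, which are each other's reverse complement) and matches to the kappa B consensus on both strands are in capitals.
ADAMTS12 intron, gained in both lines (chr5:33691082-33691381): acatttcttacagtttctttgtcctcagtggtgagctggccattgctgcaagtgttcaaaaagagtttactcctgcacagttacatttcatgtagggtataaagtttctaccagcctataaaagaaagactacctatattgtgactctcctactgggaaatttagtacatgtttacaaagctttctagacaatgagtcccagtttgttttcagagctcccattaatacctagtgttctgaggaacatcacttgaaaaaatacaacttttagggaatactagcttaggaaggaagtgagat
ADAMTS12 intron, gained in both lines (chr5:33729432-33729731): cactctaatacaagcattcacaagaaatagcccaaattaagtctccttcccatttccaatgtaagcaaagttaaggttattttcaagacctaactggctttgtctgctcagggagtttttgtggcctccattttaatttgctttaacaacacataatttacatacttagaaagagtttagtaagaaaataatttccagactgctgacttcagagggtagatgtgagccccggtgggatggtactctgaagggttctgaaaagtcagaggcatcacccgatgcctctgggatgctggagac
ADAM22 upstream, gained in both lines (chr7:87926473-87926772): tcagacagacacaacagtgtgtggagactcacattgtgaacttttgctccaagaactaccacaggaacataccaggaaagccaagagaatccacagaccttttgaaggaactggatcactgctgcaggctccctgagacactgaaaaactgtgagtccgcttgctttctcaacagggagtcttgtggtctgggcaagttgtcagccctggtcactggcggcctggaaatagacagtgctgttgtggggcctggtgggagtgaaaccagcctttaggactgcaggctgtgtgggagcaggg
ADAMTS12 intron with an AP-1 match, gained in Hs578T (chr5:33736516-33736815): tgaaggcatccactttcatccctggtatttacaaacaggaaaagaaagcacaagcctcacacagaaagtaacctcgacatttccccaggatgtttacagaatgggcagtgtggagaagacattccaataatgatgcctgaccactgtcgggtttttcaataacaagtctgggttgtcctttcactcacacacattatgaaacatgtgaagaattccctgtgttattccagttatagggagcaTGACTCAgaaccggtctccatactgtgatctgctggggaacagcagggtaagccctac
ADAM12 intron with a kappa B match, gained in MDA-MB-231 (chr10:126134199-126134498): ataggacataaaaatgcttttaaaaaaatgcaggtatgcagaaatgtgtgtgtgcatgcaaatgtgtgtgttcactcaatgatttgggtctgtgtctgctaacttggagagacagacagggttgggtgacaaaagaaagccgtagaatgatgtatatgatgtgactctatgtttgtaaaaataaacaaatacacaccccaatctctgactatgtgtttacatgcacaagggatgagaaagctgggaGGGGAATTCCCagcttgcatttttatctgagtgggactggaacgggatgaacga

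The first ADAMTS12 intron (peak region chr5:33690323-33692141) had a fold enrichment of 3.74 and 5.23 in MDA-MB-231 control TWEAK lists and 4.21 and 3.86 in Hs578T control TWEAK lists, and no peak in the other 12 lists. The second (chr5:33728625-33730538) had 7.07 and 7.93 in MDA-MB-231 and 6.14 and 8.12 in Hs578T control TWEAK lists. It also had a peak in MDA-MB-231 Fn14 KO untreated replicate 1 (2.89) and Fn14 KO TWEAK replicate 1 (3.32). Upstream of ADAM22 the fold enrichment was 6.03 and 5.96 in MDA-MB-231 and 3.45 and 4.38 in Hs578T control TWEAK lists, with no peak elsewhere. These regions were picked by peaks in control TWEAK lists and none in untreated control lists, so only the Fn14 KO values add to that.

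The lost region beyond ADAM10 (chr15:58587212-58588729) was picked by the reverse rule. Its fold enrichment was 4.25 and 5.55 in untreated MDA-MB-231 and 3.32 and 4.64 in untreated Hs578T control lists, and none of the 4 control TWEAK lists had a peak. All 8 Fn14 KO lists had a peak there, between 3.45 and 4.6.

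Other regions changed in 1 line by this count. In MDA-MB-231 control cells the start site of ADAMTS1, a proteoglycanase with anti-angiogenic activity, was covered over 0.518 and 0.841 kb untreated and over 0 kb in both TWEAK lists. It had no peak in any Fn14 KO list and 1 peak in Hs578T, in control TWEAK replicate 1 (0.737 kb). The other regions lost in MDA-MB-231 alone included 2 inside ADAMTS12 and the ADAMTS14 start. Also among them were an intron of CPSF3 in the ADAM17 window and an intron shared by B4GALT3 and PPOX in the ADAMTS4 window. Regions gained in MDA-MB-231 alone lay inside ADAM9, ADAM10, ADAM12 and ADAMTS17. In Hs578T alone, regions were gained inside ADAM11, ADAMTS3, ADAMTS12 and, at 3 sites, ADAMTS16, and in an intron of ADAMDEC1 in the ADAM28 window. Those lost in Hs578T alone lay in 2 introns of ADAM19, in FANK1 and C10orf90 in the ADAM12 window, and in NFILZ in the ADAMTS10 window.

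AP-1 was found in the 300 central bases of 5 of the 17 regions around these genes gained in either line (29.4%) and of 2 of the 13 lost in either line (15.4%), against 19.5% of all consensus regions. The kappa B consensus was found in 1 of 17 and 0 of 13, against 8.69% of all regions. Of the 6 regions around the family gained in both lines, 1 held AP-1 and 0 held kappa B, and over the whole genome the shares of the 1367 regions gained in both lines were 22.0% and 26.6%. In the 250 bases before the start, AP-1 was held by 4.20% of all promoters and kappa B by 9.96%, and of the 24 matched promoters of the family none held AP-1 and ADAM10, ADAM17, ADAM19 and ADAMTS3 held kappa B. A match is a string of letters and not a shown binding site.

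The 2 lines were compared over all conditions. In the extended body, 14 of 32 genes (43.8%) were covered more in Hs578T and 2 (6.25%) more in MDA-MB-231 (limma), against 47.1% and 3.56% of all genes. The median difference was 0.72 kb over the 32 genes and 0.78 kb over all genes. Hs578T lists covered more of the genome, and with each list scaled to its total covered length the median of all genes moved to −0.13 kb. The split then became 7 higher and 9 lower for the family, and the share of higher calls over all genes went from 93.0% to 40.4%. Of those lower in Hs578T, ADAMTS12 (−5.04 kb, limma, adjusted p = 0.0015), ADAMTS4, ADAMTS6, ADAMTS18, ADAM15, ADAM22 and ADAM30 had not passed before scaling. Line differences are therefore given below with their scaled values.

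ADAMTS16, a protease with few known substrates, differed most. Its extended body was covered over 29.8 to 39.1 kb (median 34.3) in Hs578T lists and 12.2 to 29.5 kb (median 20.1) in MDA-MB-231 lists. The ranges did not overlap, as for 5.09% of all genes, and the difference was 14.04 ± 1.37 kb (SE, limma, adjusted p = 4.96e-06), or 9.67 kb when scaled. The gap was wider in control cells, with untreated and TWEAK means of 34.3 and 37.2 kb in Hs578T and 12.9 and 16.5 kb in MDA-MB-231. In Fn14 KO cells they were 34.4 and 31.1 kb in Hs578T and 26.2 and 25.1 kb in MDA-MB-231. It had no start-site peak in any list, and its cover lay in regions inside the gene and in 3 intergenic regions of the window, which had a peak in all 16 lists and added 0.61, 0.45 and 0.56 kb to the line difference. ADAMTS15 (5.72 ± 0.62 kb, scaled 3.46 kb), ADAMTS8 (4.62 ± 0.66 kb, scaled 2.85 kb) and ADAMTS7 (3.45 ± 0.50 kb, scaled 2.55 kb) were also higher in Hs578T. So were ADAMTS10 (1.94 ± 0.42 kb, scaled 1.22 kb), ADAM29 (0.76 ± 0.19 kb, scaled 0.47 kb) and ADAMTS20 (0.66 ± 0.16 kb, scaled 0.40 kb), which all stayed past the threshold when scaled. ADAM12 (4.05 ± 0.98 kb) and ADAMTS17 (3.25 ± 0.57 kb) did not, at 0.41 kb (limma, adjusted p = 0.667) and 0.39 kb (adjusted p = 0.602).

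ADAMTS14 and ADAMTS9 were higher in MDA-MB-231, with Hs578T minus MDA-MB-231 differences of −2.13 ± 0.32 kb (SE, adjusted p = 1.36e-04) and −1.33 ± 0.17 kb (SE, adjusted p = 5.00e-05) in limma, and with scaling the differences were −2.57 and −1.55 kb (Hs578T minus MDA-MB-231). At the start site, ADAM12 (through Fn14 KO lists alone), ADAMTS15 and ADAMTS12 were higher in Hs578T (3 of 17 genes, against 14.2% of all genes) and ADAMTS14 and ADAMTS9 higher in MDA-MB-231 (2 of 17, against 1.61%). The start-site differences (Hs578T minus MDA-MB-231) were 0.29 kb for ADAM12 (scaled 0.26 kb), 0.86 kb for ADAMTS15 (scaled 0.59 kb), 1.02 kb for ADAMTS12 (scaled 0.61 kb), −1.11 kb for ADAMTS14 (scaled −1.21 kb) and −0.66 kb for ADAMTS9 (scaled −0.83 kb), and all 5 stayed past the threshold when scaled. With a replicate block, ADAM12, ADAMTS12, ADAMTS14 and ADAMTS9 missed it (limma, adjusted p = 0.0755, 0.119, 0.0930 and 0.198). The block took replicate 1 of each line as its reference. Its line difference is thus that between replicate 1 lists alone and does not check the same difference. With scaling 3 genes were higher and 5 lower at the start site, and the share of higher calls over all genes went from 89.8% to 14.0%. ADAM12, a sheddase of tumour stroma, had its start-site peak in 3 Hs578T Fn14 KO lists (0.369, 0.924 and 0.989 kb) and in no other list. It met the filter of 2 covered lists only through these, and in control cells of both lines its start-site cover was 0 kb. Its call is therefore no test of a line difference, and ADAMTS15 and ADAMTS12 are the genes higher in Hs578T at the start site that remain without it.

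The line differences of 4 sheddases and of ADAMTS13 turned with the scaling, after which none of the 5 passed the test. Before scaling, leaving out single lists also ended the calls of ADAM10 (10 of 16 lists), ADAM9 (9) and ADAM8 (7). ADAM10 was higher in Hs578T by 1.57 kb and became −0.48 kb, ADAM8 went from 2.09 to −0.42 kb, ADAM9 from 1.80 to −1.28 kb, ADAM19 from 3.31 to −1.36 kb, and ADAMTS13, which cuts von Willebrand factor, from 1.17 to −0.03 kb. Of these, ADAM9 has 3 other start sites in its window and ADAM8 has 5.

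**Figure D5:**
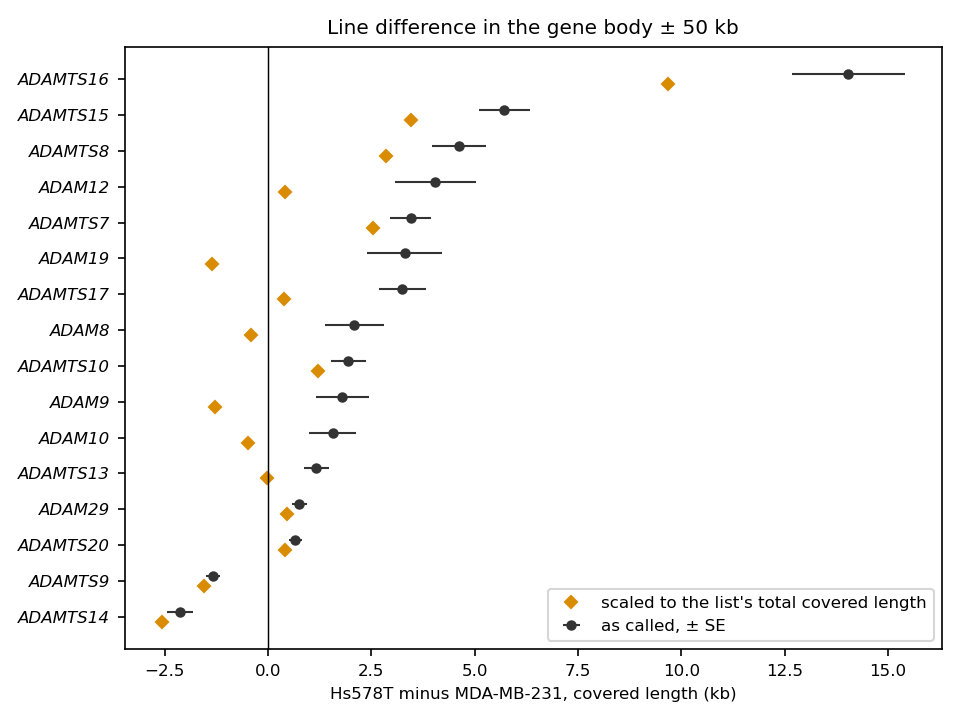
Difference between Hs578T and MDA-MB-231 in covered length (kb) of the extended body for the 16 genes that passed the test, as called with its SE (black) and after scaling each list to its total covered length (orange). ADAM8, ADAM9, ADAM10, ADAM19 and ADAMTS13 cross 0 with scaling, from 2.09, 1.80, 1.57, 3.31 and 1.17 kb.

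Fn14 KO and control cells were compared in untreated cells of each line. Loss of Fn14 cannot be told apart here from other differences between the KO and control cells. In MDA-MB-231, ADAMTS16 and ADAMTS17 rose (2 of 32 genes, 6.25%, against 1.23% of all genes). ADAMTS16 was covered over 12.2 and 13.7 kb in control lists and 29.5 and 23 kb in Fn14 KO lists, a difference of 13.30 ± 2.74 kb (SE, limma, adjusted p = 0.0296). The KO lists treated with TWEAK gave 24.7 and 25.5 kb, so all 4 KO lists lay above all 4 control lists, the highest of which was 17.3 kb. Untreated KO and control lists of MDA-MB-231 did not overlap for 25.4% of all genes. No such share was computed for all 4 lists against 4. ADAMTS17 was covered over 11.5 and 13.4 kb in control and 18.6 and 17.7 kb in Fn14 KO lists, a difference of 5.67 ± 1.13 kb (SE, limma, adjusted p = 0.0245).

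The ADAMTS16 call was lost without 7 of the lists, which were all 4 MDA-MB-231 control lists, MDA-MB-231 Fn14 KO untreated replicate 1 and both MDA-MB-231 Fn14 KO TWEAK lists (adjusted p up to 0.124). That of ADAMTS17 was lost without MDA-MB-231 control untreated replicate 1 (4.72 kb, adjusted p = 0.0646) and with a replicate block (5.67 kb, adjusted p = 0.0710). The lower −log10 q-values of the MDA-MB-231 Fn14 KO lists go with this contrast, and their part in it was not tested. In Hs578T no gene of the 39 passed in the extended body (0.525% of all genes, 5 of 32 at an unadjusted p under 0.05 in limma, as for 1561 of all 17915). ADAMTS17 went the other way there, with untreated means of 20.7 kb in control and 17.8 kb in Fn14 KO lists. These lists did not overlap, as for 42.7% of all genes. For ADAMTS16 the untreated Hs578T means were 34.3 kb in control and 34.4 kb in Fn14 KO lists. At the start site none passed in MDA-MB-231 (0.526%) or Hs578T (0.223%), with 2 of 17 each at an unadjusted p under 0.05 (1301 and 953 of all 12548).

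Inhibitors, regulators and substrates of these proteases were measured in the same fit, in which 7.54% of all genes rose and 11.3% fell with TWEAK in control cells. These shares are the background for the counts of each list. Of 5 inhibitor genes tested in the extended body (the TIMP genes, RECK and A2M, of which 1 of 6 was not covered), TIMP1 rose with TWEAK in control cells by 1.95 ± 0.57 kb (SE, limma, adjusted p = 0.0277) and none fell. Of 12 sheddase regulators, none rose and 3 fell. They were RHBDF1, an iRhom partner of ADAM17 (−2.70 kb, adjusted p = 0.0112), FRMD8, which stabilises the iRhom complex (−7.47 kb, adjusted p = 0.0344), and PCSK7, a proprotein convertase (−3.80 kb, adjusted p = 7.85e-04).

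Of 20 ADAM substrates, none rose and 2 fell, NOTCH3 (−2.13 kb, adjusted p = 0.0458) and the TNF receptor gene TNFRSF1A (−7.34 kb, adjusted p = 0.0308). Of 13 ADAMTS substrates, 2 rose and 4 fell in limma. VEGFC, a lymphatic growth factor matured with the help of ADAMTS3, rose by 10.40 ± 1.56 kb (SE, adjusted p = 4.69e-04) and the proteoglycan gene DCN by 1.52 ± 0.28 kb (SE, adjusted p = 0.00184). Those that fell were the proteoglycan genes ACAN and BCAN, the collagen gene COL1A1 and VWF, by 1.90 to 3.43 kb. Of 6 ADAMTS-like genes, which lack the protease domain, ADAMTSL1 (5.89 kb, adjusted p = 0.0260) and PAPLN (1.86 kb, adjusted p = 0.00768) rose and ADAMTSL2 fell (−1.78 kb, adjusted p = 0.0194). At the start site, none of 5 inhibitors, 10 sheddase regulators, 12 ADAM substrates and 4 ADAMTS-like genes passed with TWEAK in control cells. Of 4 ADAMTS substrates tested there, COL1A1 fell (background 1.82% lower and 1.09% higher). The extended bodies of these related genes were not split between the gene and its neighbours.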

How the data were processed

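H3K27ac ChIP-seq was made from chromatin sheared to 200 to 500 bp in 16 samples. Per the labels, the authors used Trimmomatic on the reads, Bowtie2 for alignment (build hg38), MACS2 against input for the peaks of each sample, and bedtools to remove blacklisted regions; versions are not given in the sources used here. The deposited lists give peak positions, a score, the fold enrichment, and −log10 p and −log10 q-values. The authors' score and −log10 p were not used in any result. Without reads or library sizes the depth is unknown.

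Genes came from GENCODE release 44. Covered kb was computed in each list over 2 kb on each side of the start site (of the Ensembl canonical transcript) and over the gene body extended by 50 kb. Genes covered in at least 2 lists were tested on kb in limma 3.58.1 (R 4.3.3) with 1 mean for each of the 8 groups, 8 residual degrees of freedom and Benjamini-Hochberg adjustment over all genes of a window (threshold 0.05). Peaks that touched in any list were merged, and regions present in at least 2 lists were kept. The sequence and values of 1 lost region are not reported here. The limma fit was also run on simulated Gaussian data with known shifts. Those data lacked the zeros and list-wide shifts of the peak lists, so they do not show how the test behaves there. Python 3.11.15 did the remaining steps.

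Genes named are those with an adjusted p under 0.05 in any of 7 contrasts or with a region gained or lost with TWEAK in control cells, at most 30. The family, the related lists and the tests were chosen with earlier results of these data known. The methods speak of biological replicates without tying samples to cultures, so p-values measure the spread between these samples. Alternatives were a stricter q-value, equal peak numbers, scaling to total covered length, no filter, a replicate block, other flanks and start sites, a log2 scale and each list left out. The block was coded within each line with replicate 1 as reference, so the line contrast under it compares replicate 1 lists alone.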

Additional observations from a re-analysis of the deposited data

Results flagged for a closer look

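In 5 genes the TWEAK effect differed between control and Fn14 KO cells by a test of that difference (limma, extended body, adjusted over all genes). For ADAMTS8 the control effect minus the Fn14 KO effect was −7.02 kb, and for its neighbour ADAMTS15, which shares regions with it, −6.34 kb. It was −2.60 kb for ADAMTS14, −3.17 kb for ADAMTS10 and 1.39 kb for ADAMTS9. Of 24 alternatives each, the call held in 24 for ADAMTS15, 23 for ADAMTS8, 13 for ADAMTS9, 11 for ADAMTS14 and 7 for ADAMTS10.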

How the results depend on the processing

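Over 38 calls of named genes and 904 alternatives, 778 kept the call, 120 kept the direction but missed the threshold and 6 reversed. The reversals were, with lists scaled to total covered length, the line differences of ADAM10 (−0.48 kb), ADAM19 (−1.36 kb), ADAM8 (−0.42 kb), ADAM9 (−1.28 kb) and ADAMTS13 (−0.03 kb), and with a 10 kb flank the TWEAK difference of ADAM28 (−0.11 kb). The TWEAK calls of ADAMTS6, ADAMTS8, ADAMTS9, ADAMTS14 and ADAMTS15 in control cells held in all 24 alternatives each. With a 10 kb flank the genotype difference at ADAMTS8 missed the threshold (−0.78 kb, limma, adjusted p = 0.187).

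Scaling took the number of genes called from 9 to 14 for TWEAK in control cells, from 5 to 10 for its difference from Fn14 KO cells, from 2 to 6 for Fn14 loss in MDA-MB-231, and at the start site from 5 to 8 for the lines and from 1 to 2 for TWEAK. The genotype difference gave 3 with a 10 kb flank and 3 on the log2 scale. The start-site TWEAK count was 2 with equal peak numbers, with the gene's 5′ end and with any coding start. Counting genes whose groups do not overlap gave 2 of 32 for the lines in the body (5.09% of all genes), 0 of 17 at the start (1.69%), 3 of 17 for TWEAK at the start (15%), and 11 and 12 of 32 for Fn14 loss in MDA-MB-231 and Hs578T (25.4% and 42.7%). For TWEAK in control cells in the body that count was 6 higher and 7 lower of 32 (30.2% of all genes).

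The same replicate numbers did not pair the samples (correlations of deviations between −0.715 and 0.237 for MDA-MB-231 and between −0.136 and 0.235 for Hs578T). With a replicate block, 21 of the 38 calls held. For the lines that setting compared replicate 1 lists alone, so it did not check the same difference there. The counts became 8 for the lines in the body, 3 for the genotype difference, 1 for Fn14 loss in MDA-MB-231, 1 for the lines at the start and 0 for TWEAK at the start.

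Leaving out each list gave 13 to 19 genes for the lines in the body, 7 to 11 for TWEAK, 2 to 7 for the genotype difference, 0 to 1 for the line difference in TWEAK, 1 to 3 for Fn14 loss in MDA-MB-231, and at the start 4 to 7 for the lines and 0 to 2 for TWEAK. For MDA-MB-231, gained regions then numbered 11 to 16 and lost ones 8 to 15, and for Hs578T 15 to 16 and 7 to 17. Requiring peaks over 50% of a region gave 16 lost in each line, nearest start sites 4 and 3 lost, and a stricter q-value 8 gained in Hs578T. The cause of these shifts was not tested. Peak lists show no change within a peak's height, and depth cannot be judged.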
